A study of Mus musculus with 6 samples.

Results

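The BCL2 family decides whether a cell releases cytochrome c from its mitochondria and dies, and 10 of its genes were followed here in cultured mouse alveolar macrophages, which live in the air spaces of the lung and clear them. The 10 were chosen by name, as the best-known survival and death genes of the family: Bcl2, Bcl2l1, Mcl1, Bcl2a1b and Bcl2a1d, which protect the cell; Bcl2l11, Bbc3 and Bid, which start the process; and Bax and Bak1, which carry it out. All 10 were among the 16840 genes of the deposited count table, and all 10 passed the filter on low counts, which kept 12340 genes. The cells were wild type and were sampled at day 2 in 3 groups of 2 RNA sequencing libraries each. The first group had no GM-CSF (granulocyte-macrophage colony-stimulating factor, the cytokine that alveolar macrophages need to develop and persist), the second had GM-CSF, and the third had GM-CSF with DON, an agent that the labels give by this abbreviation alone. Beyond these, no allele, agent, age or sex is stated, the labels put AM under the heading of a cell line, and they do not say that replicates came from separate animals or cultures. P-values therefore measure only the spread between these libraries, which may be technical.

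Proteins of this family act on the outer membrane of the mitochondrion. The protective members (BCL2, BCL-XL from Bcl2l1, MCL1 and A1 from the Bcl2a1 genes) bind and hold back the other members. BH3-only proteins (BIM from Bcl2l11, PUMA from Bbc3, BID) respond to particular stresses, occupy the protective proteins and help to activate BAX and BAK, which then open pores that let cytochrome c out. Much of the control lies in protein turnover, cleavage and location, none of which an RNA library measures, and these libraries contain no count of dying cells. In bulk RNA, fewer cells of a type and less RNA per cell cannot be told apart.

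Total counts per library lay between 28321986 and 35196387, and the median standard error (SE) of a log2 fold change was 0.08 at most. Levels are CPM, that is counts scaled to a common library size with edgeR's TMM factors, and the words rose and fell are used only where edgeR's quasi-likelihood test gave an adjusted p under 0.05 over all 12340 genes. Of the alveolar macrophage markers, 10 of 12 symbols listed were in the table, with a summed level of 7145 to 7748 CPM without GM-CSF, 11477 to 11495 CPM in the GM-CSF group and 14463 to 14465 CPM with DON. Most of the rise in this sum was Chi3l3 (1814, 5542 and 7700.3 CPM in that order of groups), and the 10 markers did not move as a set: with GM-CSF 3 rose and 4 fell, and with DON added 5 rose and 4 fell. Car4, one of them, was at 0.226 CPM without GM-CSF. Of the pan macrophage list 5 of 6 symbols had a row, and 5 of 5 fell with GM-CSF and were lower with DON than without GM-CSF. Their sum, mostly Lyz2, was 40991 to 41315 CPM without GM-CSF, 19489 to 19617 CPM in the GM-CSF group and 21093 to 22663 CPM with DON. Of the granulocyte list 3 of 9 symbols had a row, with summed levels of 16.2 to 17.4, 3.83 to 4.34 and 3.13 to 3.92 CPM in the same order of groups. These sums were almost wholly S100a8, and Camp was at 0 in both groups without DON. Lymphocyte markers (4 of 8 in the table) summed to at most 1.54 CPM in any library and lung epithelial markers (7 of 8) to at most 6.12 CPM. The sum of the fibroblast and endothelial list, 94.7 to 273 CPM, was carried by Vwf, while Col1a1, Col1a2, Col3a1 and Kdr were each below 0.1 CPM in every group. The 8 mitosis genes, among them Mki67 and Top2a, summed to 375 to 425 CPM without GM-CSF, 938 to 993 CPM in the GM-CSF group and 330 to 416 CPM with DON; 8 of 8 rose with GM-CSF and 8 of 8 fell when DON was added. Of all genes tested, 56.8% were called with GM-CSF against none (27.5% higher, 29.3% lower). The share was 57.6% with DON added to GM-CSF (28.8% in each direction) and 55.6% with DON against none (27.2% higher, 28.4% lower). The part of these marker levels in the results below was not tested.

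The family did not move as a block in any comparison. With GM-CSF, against none, 3 members rose (Bcl2, Bcl2a1d, Bak1) and 3 fell (Mcl1, Bcl2l11, Bid), beside 56.8% of all genes tested that were called, 27.5% higher and 29.3% lower. With DON added to GM-CSF, 3 rose (Bbc3, Bax, Bid) and 4 fell (Bcl2, Mcl1, Bcl2a1d, Bak1), beside 57.6% of all genes called, 28.8% in each direction. With GM-CSF and DON against no GM-CSF, 3 rose (Bbc3, Bcl2, Bax) and 4 fell (Bcl2l11, Mcl1, Bak1, Bcl2l1), beside 55.6% of all genes, 27.2% higher and 28.4% lower. The share of members called was thus near that of all genes. The median log2 fold change of the members was -0.03, -0.02 and 0.00 in the 3 comparisons, and that of all genes was -0.02, 0.01 and 0.01. The libraries of both groups did not overlap for 8, 8 and 7 of the 10 members, against 78.7%, 79.4% and 77.6% of all genes. With total counts in place of TMM, the median of all genes was 0.10 for GM-CSF against none and 0.11 for DON against none. The share of called genes that were higher then went from 48.4% to 63.0% and from 48.9% to 61.6%. Any 2 of these comparisons share libraries, so they are not independent of each other.

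**Figure D1:**
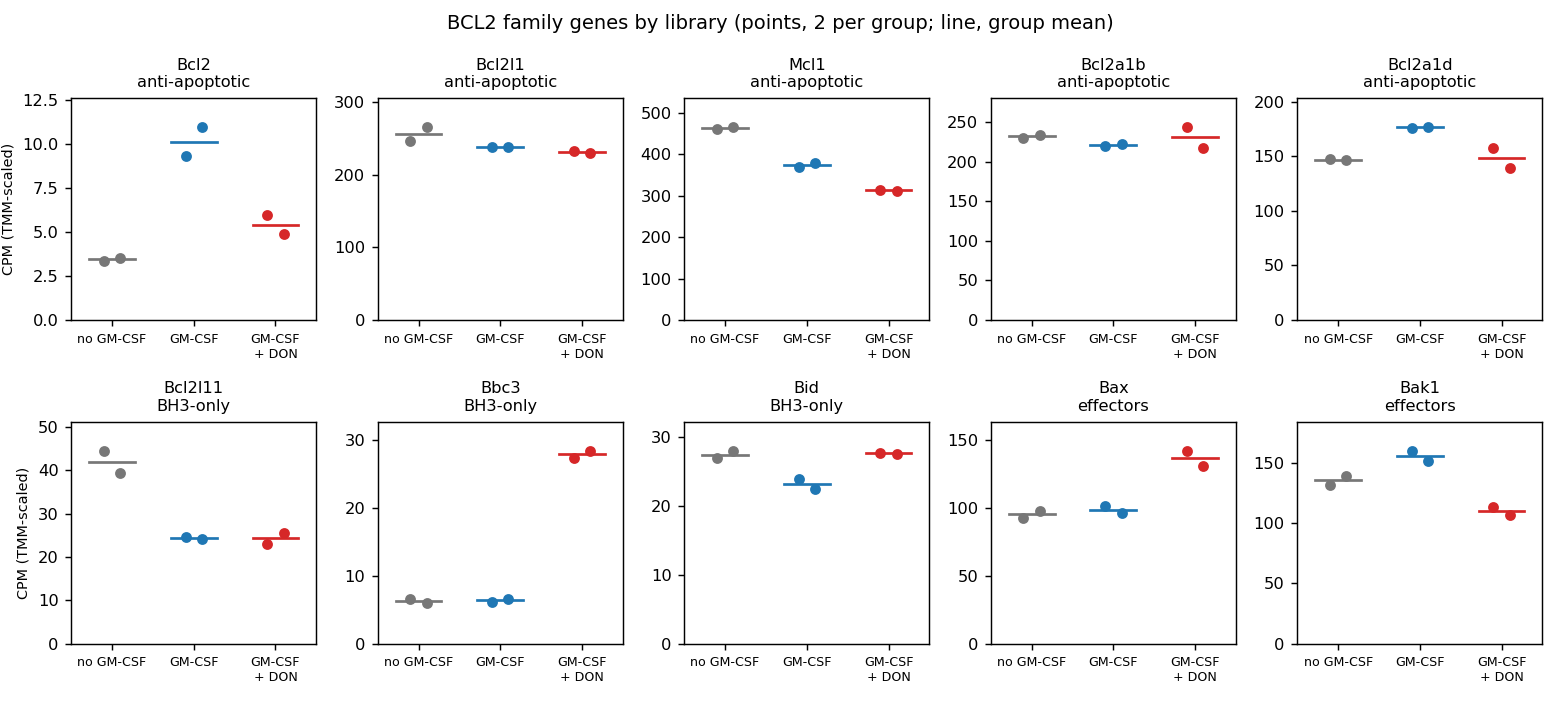
CPM of the 10 BCL2 family genes in each of the 6 libraries (points) with the group mean (line), on a linear axis from 0 that differs between genes. Bbc3 was high only in the 2 libraries with DON, Bcl2 was highest in the 2 with GM-CSF alone, and Bcl2l11 was highest in the 2 without GM-CSF.

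Among the protective genes, Bcl2 and Mcl1 moved in opposite directions with GM-CSF and in the same direction with DON. Bcl2, the founding member of the family, stood at 3.35 and 3.53 CPM without GM-CSF, 9.30 and 11.0 in the GM-CSF group, and 5.94 and 4.88 with DON. No library of one group overlapped those of another. It rose with GM-CSF by 1.55 ± 0.14 on the log2 scale, or 2.94-fold (edgeR adjusted p = 7.93e-06). With DON it fell by 0.91 ± 0.13 (edgeR adjusted p = 0.000254) and remained above the level without GM-CSF, with a log2 fold change of 0.65 ± 0.15 (edgeR adjusted p = 0.0048). On the authors' FPKM values with 1 added before the logarithm, a scale that compresses low levels such as those of Bcl2, the rise with GM-CSF was 0.72 and the change with DON -0.47, both still called in limma. The difference between DON and no GM-CSF was 0.25 there and did not pass (limma adjusted p = 0.0568). On the opposite strand, D630008O14Rik overlaps 558 of the 9157 exon bases of Bcl2 (6.09%), and its part in the levels of Bcl2 was not tested. The mitosis genes rose and fell in the same 2 comparisons, as did Bcl2a1d, Bak1 and Cycs, which are described further on.

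Mcl1, whose protein is short-lived and which myeloid cells commonly rely on, was highest without GM-CSF, at 459.9 and 466 CPM. It was at 369 and 378 CPM with GM-CSF and at 314 and 313 CPM with DON, so that the 3 groups formed 3 separate levels. Its log2 fold change was -0.31 ± 0.04 for GM-CSF against none and -0.25 ± 0.04 for DON added to GM-CSF (edgeR adjusted p = 6.26e-05 and 0.00026). Between the outer groups it was -0.56 ± 0.04 (edgeR adjusted p = 8.85e-07). With total counts in place of TMM, the first of these was -0.19 and still called.

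Bcl2l1, which encodes BCL-XL, varied least among the protective genes apart from Bcl2a1b. It was measured at 247 and 266 CPM without GM-CSF, 238 and 238 with it, and 233 and 229 with DON. The ranges lay in that order without overlapping, but close together. Its log2 fold changes were -0.11 ± 0.05 for GM-CSF and -0.04 ± 0.05 for DON added to it, neither of which passed (edgeR adjusted p = 0.0684 and 0.457); the first was 0.01 with total counts and the second 0.03 with upper quartile scaling. Between DON and no GM-CSF the difference was -0.15 ± 0.05 (edgeR adjusted p = 0.0185). This call was lost in 7 of 15 alternatives: without no GM-CSF replicate 2 (-0.10, adjusted p = 0.151), without either DON library (-0.16 and -0.14, adjusted p = 0.0547 and 0.089), with 2 other scalings of the counts (-0.11 and -0.05) and on FPKM with either pseudocount (-0.13).

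Both Bcl2a1 genes encode A1, a protective protein whose genes are classic targets of NF-kB in leukocytes. Bcl2a1b stood at 230.1 and 234 CPM without GM-CSF, 219.5 and 223 with it, and 244 and 218 with DON. The libraries with DON spanned those of the other groups, and no comparison passed (log2 fold changes of -0.07, 0.06 and -0.01, edgeR adjusted p = 0.289, 0.34 and 0.916). Without DON replicate 2 the second was 0.15 and passed (edgeR adjusted p = 0.0378). Bcl2a1d was at 147 and 146 CPM without GM-CSF, 176 and 177 with it, and 157 and 139 with DON. It rose with GM-CSF by 0.27 ± 0.06 and fell with DON by 0.25 ± 0.06 (edgeR adjusted p = 0.00261 and 0.00363). Without DON replicate 2 the fall with DON was -0.16. The outer groups differed by 0.01 ± 0.06 (edgeR adjusted p = 0.844).

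Reads of the Bcl2a1 genes cannot always be assigned to one copy, because the copies are nearly identical. They lie on chromosome 9 of GRCm38 as separate protein-coding genes, Bcl2a1b at chr9:89199209-89207827 on the plus strand, Bcl2a1d at chr9:88723285-88731914 on the minus strand and Bcl2a1a, a further copy in the table, at chr9:88956900-88962419 on the plus strand. The coding sequences, from GENCODE vM21, are 516 bases long without the stop codon. Bcl2a1b and Bcl2a1d were 98.8% identical (6 mismatches), Bcl2a1a and Bcl2a1d 98.6% (7), and Bcl2a1a and Bcl2a1b 97.9% (11). The first 120 bases of each are shown because they hold 7 of the 12 positions at which the 3 copies differ. Capitals mark those positions.
Bcl2a1a: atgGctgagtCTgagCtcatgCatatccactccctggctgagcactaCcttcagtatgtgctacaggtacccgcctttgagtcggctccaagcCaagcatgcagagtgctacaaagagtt
Bcl2a1b: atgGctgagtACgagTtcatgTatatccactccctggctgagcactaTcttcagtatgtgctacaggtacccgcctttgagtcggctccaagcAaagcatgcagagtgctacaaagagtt
Bcl2a1d: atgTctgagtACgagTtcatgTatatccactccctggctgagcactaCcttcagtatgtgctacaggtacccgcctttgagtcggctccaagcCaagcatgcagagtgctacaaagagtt
A read that falls wholly between the capitals matches all 3 copies.

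Windows were taken from the longest annotated coding transcript of each gene. Of all windows of 50 bases in that of Bcl2a1b, 79.2% also occurred in another gene, and of windows of 150 bases 41.9% did. The shares for Bcl2a1d were 79.5% and 30.3%, and for Bcl2a1a 69.0% and 28.2%. For Mcl1, Bcl2l1 and Bbc3 no window of these lengths was shared. Read length and the handling of reads with several matches are not stated by the sources used here, so the level of each copy is uncertain. Bcl2a1b also shares 401 of its 817 exon bases (49.1%) with the annotated gene Gm29094 on the same strand. Summing the 3 copies leaves aside how reads were split among them. The sum was 466 ± 7.17 CPM without GM-CSF, 518 ± 1.92 in the GM-CSF group and 494 ± 34.8 with DON (SD, n = 2). It rose with GM-CSF by 0.15 ± 0.05 (edgeR adjusted p = 0.0229), and the other comparisons did not pass (-0.07 and 0.08, edgeR adjusted p = 0.258 and 0.175). The fall of Bcl2a1d with DON therefore had no counterpart that passed in the sum. Bcl2a1b took 49.9% and 49.7% of the counts of the 3 copies without GM-CSF, 42.3% and 43.1% in the GM-CSF group and 47.1% and 46.4% with DON.

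**Figure D2:**
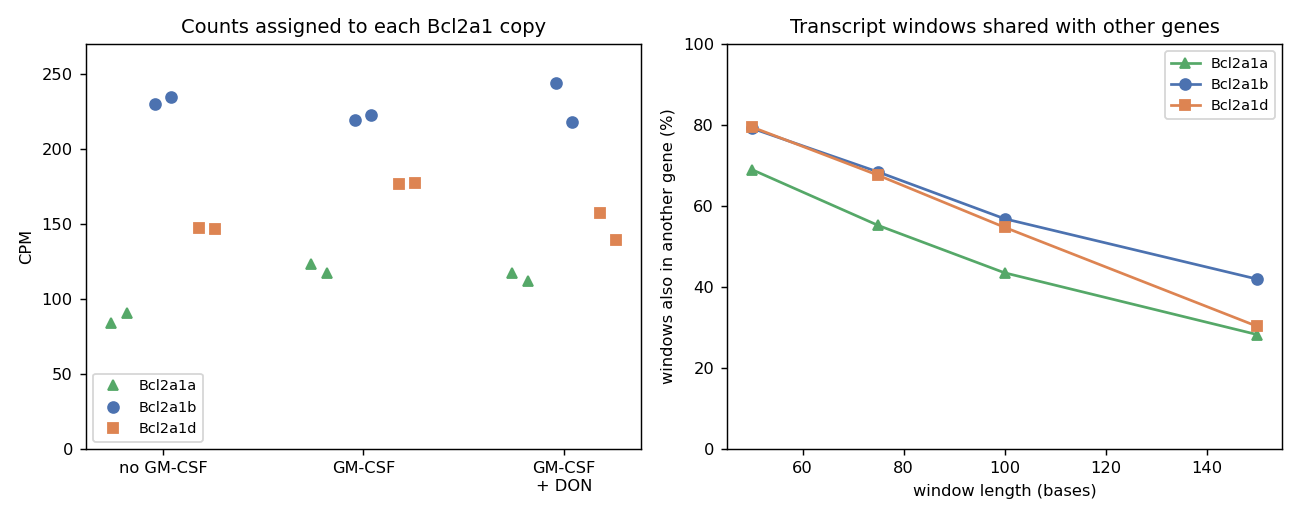
Left, CPM assigned to Bcl2a1a, Bcl2a1b and Bcl2a1d in each library (2 points per group). Right, the percentage of transcript windows of 50, 75, 100 and 150 bases that also occur in another annotated gene; at 50 bases it was 69.0% to 79.5% for these copies.

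The BH3-only genes each followed a course of their own: Bbc3 rose with DON, Bcl2l11 fell with GM-CSF, and Bid dipped with GM-CSF alone. Bbc3 encodes PUMA, a BH3-only protein known as a target of p53 and, in stressed cells, of FOXO3 and CHOP. It stood at 6.64 and 6.03 CPM without GM-CSF, 6.16 and 6.55 with it, and 27.3 and 28.4 with DON. Both libraries with DON were far above the other 4, which overlapped. Bbc3 rose with DON by 2.13 ± 0.09 over GM-CSF alone, or 4.39-fold, and ranked 96 of 12340 genes by log2 fold change (edgeR adjusted p = 7.7e-08). Over no GM-CSF it rose by 2.14 ± 0.09 (edgeR adjusted p = 2.4e-08), while GM-CSF alone differed from none by 0.0031 ± 0.10 (edgeR adjusted p = 0.986). The rise with DON lay between 1.83 and 2.21 in all 15 alternatives. The gene lies at chr7:16308393-16318205 on the plus strand.

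Bcl2l11 encodes BIM, which is known to accumulate when growth factors are withdrawn from blood cells. It was at 44.5 and 39.4 CPM without GM-CSF, 24.6 and 24.2 in the GM-CSF group, and 23.1 and 25.6 with DON. The 2 libraries without GM-CSF stood above the other 4, and those with DON spanned those with GM-CSF alone. It fell with GM-CSF by 0.78 ± 0.08 and was lower by as much with DON against none (log2 fold change -0.78 ± 0.08; edgeR adjusted p = 1.4e-05 and 1.49e-05). DON added to GM-CSF gave a difference of -0.0015 ± 0.08 (edgeR adjusted p = 0.989), with values of -0.08 to 0.07 over the alternatives. Like Bcl2l11 and Mcl1, the summed granulocyte markers were highest without GM-CSF, at 16.2 to 17.4 CPM against at most 4.34 CPM in the other groups. So were the pan macrophage markers, at 40991 to 41315 CPM against at most 22663 CPM, and the part of either list was not tested. The gene lies at chr2:128126038-128162547 on the plus strand.

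Bid encodes the link from death receptors to mitochondria, a protein that caspase 8 cleaves into its active form. Its levels were 26.9 and 28.1 CPM without GM-CSF, 23.9 and 22.5 with it, and 27.8 and 27.6 with DON. The 2 libraries with GM-CSF alone were the lowest, and the other 4 overlapped. Bid fell with GM-CSF by 0.25 ± 0.06 and rose with DON by 0.26 ± 0.06 (edgeR adjusted p = 0.00814 and 0.00661), and the outer groups differed by 0.01 ± 0.06 (edgeR adjusted p = 0.904). Both calls were lost without GM-CSF replicate 2 (-0.20 and 0.21, edgeR adjusted p = 0.0641 and 0.0553), and the first was lost with total counts in place of TMM (-0.13, edgeR adjusted p = 0.13). On the opposite strand, Bcl2l13 overlaps 628 of the 3550 exon bases of Bid (17.7%), and with an unstated strand setting reads from that stretch cannot be told apart. Bcl2l13 itself was at 37.8 and 36.8, 42.1 and 43.5, and 43.5 and 47.5 CPM in the 3 groups, and its part in the levels of Bid was not tested.

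The effectors moved in opposite directions with DON. Bax, whose protein shuttles between cytosol and mitochondria, was at 92.6 and 97.8 CPM without GM-CSF, 101 and 96.2 with it, and 142 and 131 with DON. Both libraries with DON were above the other 4, which overlapped. It rose with DON by 0.47 ± 0.06 over GM-CSF alone and by 0.52 ± 0.06 over none (edgeR adjusted p = 6.85e-05 and 3.18e-05). GM-CSF alone gave 0.05 ± 0.06 (edgeR adjusted p = 0.468), which was 0.17 and passed with total counts in place of TMM (edgeR adjusted p = 0.0236). The annotated gene Gm45808 shares 192 of the 1576 exon bases of Bax (12.2%) on the same strand, and its part in the levels of Bax was not tested. Bak1, whose protein sits in the mitochondrial membrane already in healthy cells, was at 132 and 139 CPM without GM-CSF, 160.1 and 151 with it, and 113 and 106 with DON. No groups overlapped, and the libraries with DON were the lowest. It rose with GM-CSF by 0.20 ± 0.05 (edgeR adjusted p = 0.00841), a call lost without GM-CSF replicate 1 (0.16, edgeR adjusted p = 0.0788); with total counts the rise was 0.32. With DON it fell by 0.50 ± 0.05 against GM-CSF and was lower than without GM-CSF, at -0.30 ± 0.05 (edgeR adjusted p = 2.74e-05 and 0.000881). Ggnbp1, on the opposite strand, overlaps 614 of the 2407 exon bases of Bak1 (25.5%) but had 177 counts in all 6 libraries together.

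**Figure D3:**
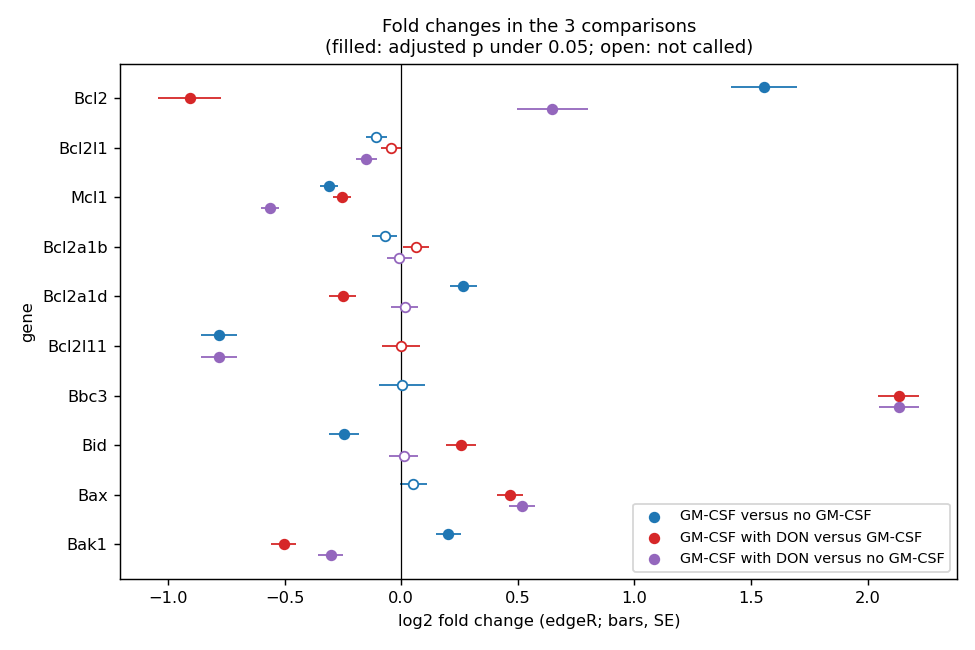
Log2 fold change (points) with its SE (bars) of each BCL2 family gene in the 3 comparisons; filled points have an edgeR adjusted p under 0.05. Bbc3 stands apart at 2.13 and 2.14 in both comparisons with DON, and Bax and Bak1 lie on opposite sides of 0 there, at 0.47 and -0.50 against GM-CSF alone.

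The other members lie, in GRCm38, at chr1:106538178-106714274 (Bcl2), chr2:152780668-152831728 (Bcl2l1), chr6:120891930-120916853 (Bid), chr7:45461697-45466898 (Bax) and chr17:27019810-27029009 (Bak1), all on the minus strand, and at chr3:95658788-95663176 on the plus strand (Mcl1). Levels can be compared between genes only per transcript length, for which the authors' FPKM values (fragments scaled to transcript length and library size) were used. Without GM-CSF the order from the highest FPKM was Bcl2a1b (369), Bcl2a1d (234), Bcl2l1 (159), Mcl1 (140.4), Bax (134), Bak1 (70.7), Bid (13.9), Bcl2l11 (9.74), Bbc3 (5.14) and Bcl2 (0.492), and no neighbours in this order overlapped. With GM-CSF, Bcl2l1 (144 FPKM) and Bax (139 FPKM) overlapped and Mcl1 (114 FPKM) came below both, and the rest of the order was the same. With DON, Bax (190.4 FPKM) came next after the Bcl2a1 genes, above Bcl2l1 (145 FPKM) and Mcl1 (94.6 FPKM). Bbc3 (22.6 FPKM) then stood above Bid (13.7 FPKM) and Bcl2l11 (6.39 FPKM). Bcl2 was last in every group, at 1.46 FPKM with GM-CSF and 0.769 FPKM with DON. The gene length implied by counts and FPKM was not fixed across libraries for some members, with a coefficient of variation of 7.32% for Bbc3, 6.60% for Bcl2l11 and 3.48% for Bak1.

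Summed over the 10 genes, FPKM was mostly that of protective genes in every library. They made up 79.7% and 79.3% of the family's FPKM without GM-CSF, 77.9% and 78.9% with it, and 74.6% and 73.7% with DON. The effectors held 17.8% and 18.2%, 20.0% and 19.1%, and 21.9% and 22.3% in the same order of groups, and the BH3-only genes 2.58% and 2.48%, 2.10% and 2.08%, and 3.50% and 4.04%. The groups did not overlap for any of the 3 roles, with the protective share lowest and the other shares highest with DON. These shares were not tested. Of the effectors, Bax held on average 12.3% of the family's FPKM in the GM-CSF group and 16.8% with DON, and Bak1 7.25% and 5.32%. Bcl2a1b and Bcl2a1d, whose separate levels are uncertain, held on average 32.5% and 20.6% of it without GM-CSF. Within the BH3-only genes, Bbc3 held 17.3% and 18.5% of the FPKM without GM-CSF, 24.2% and 23.1% in the GM-CSF group, and 52.6% and 53.2% with DON. Bid held the largest BH3-only share without DON (47.2% to 50.6%) and Bbc3 with it. Bcl2l11 held 35.5% and 32.2% without GM-CSF and 14.1% and 15.8% with DON. A share of RNA does not give the ratio of the proteins.

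**Figure D4:**
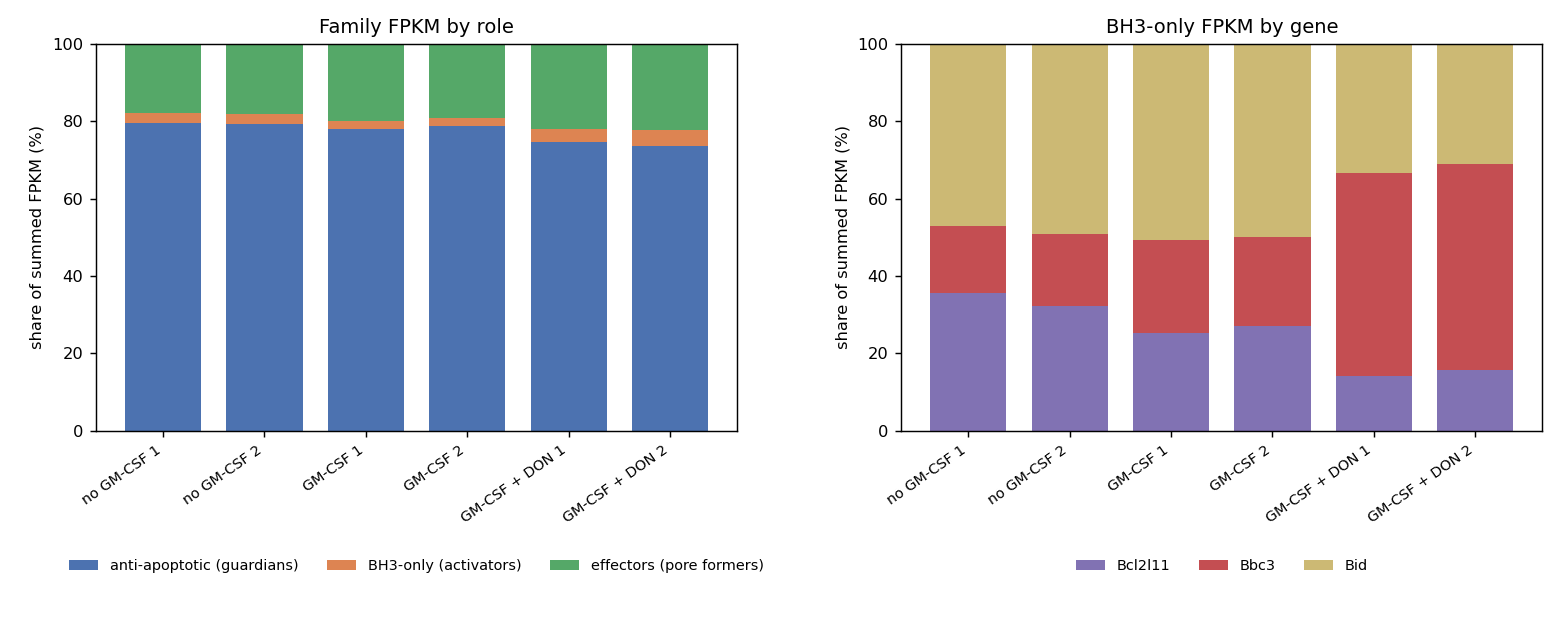
Left, share of the summed FPKM of the 10 genes held by each role in each library, in percent. Right, share of the BH3-only FPKM held by Bcl2l11, Bbc3 and Bid; Bbc3 takes 52.6% and 53.2% of it in the libraries with DON against 17.3% to 24.2% in the other 4.

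Start-site windows of the members, 250 bases before to 50 after each RefSeq start (GRCm38.p6), were searched on both strands for 4 motifs: TTCNNNGAA (bound by STAT factors), TGATGNAA (an ATF4 and CHOP element), GTAAACA (forkhead factors) and the NF-kB consensus. The 10 genes and Bcl2a1a had 16 windows. Over all 32851 windows of the table, 8.30% held TTCNNNGAA, 3.97% TGATGNAA, 3.65% GTAAACA and 4.51% the NF-kB consensus. The forkhead letters occurred in windows of the BH3-only genes Bbc3 and Bcl2l11, and TGATGNAA in those of the 3 Bcl2a1 copies. Bbc3 had 3 windows and Bcl2l11 had 2, while the shares above are per window. The matches of the forkhead letters and of TGATGNAA are shown, in genes whose levels moved most or cannot be separated. Matches of the NF-kB consensus, found also in Bbc3, are not printed. Each stretch shown is printed on the strand of its gene, which is minus for Bcl2a1d and plus for the others. Capitals mark the match.
Bbc3, intron, chr7:16310083-16310112: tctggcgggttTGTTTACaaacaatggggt
Bcl2l11, upstream, chr2:128125800-128125829: aagacactaggGTAAACAcgccggggtggg
Bcl2a1b, UTR, chr9:89199222-89199251: acgctgtgacaTGATGCAAacaaaaattcc
Bcl2a1d, UTR, chr9:88731828-88731857: acgctgtgacaTGATGCAAacagaaattcc
Bcl2a1a, UTR, chr9:88956913-88956942: acgctgtgacaTGATGCAAacagaaattcc
In Bbc3 the match is the reverse complement of GTAAACA. The NF-kB consensus was found in windows of Bcl2l1 and Bbc3, and TTCNNNGAA in none of the 16. A match is only a run of letters, and these libraries hold no measure of binding.

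Of 16 other BCL2 family genes listed, 12 were in the table and 10 were tested. Bik (17 counts over the 6 libraries) and Bcl2l15 (3 counts) fell to the filter on low counts. With GM-CSF 4 rose and 3 fell, with DON added 3 rose and 1 fell, and with DON against none 3 rose and 2 fell, beside 56.8%, 57.6% and 55.6% of all genes called. Among the BH3-only genes, Bmf, which responds to loss of anchorage, was at 5.53 and 5.47 CPM without GM-CSF, 4.72 and 4.53 with it, and 8.74 and 8.63 with DON. Like Bbc3 it was highest in the libraries with DON, rising by 0.91 ± 0.11 over GM-CSF alone (edgeR adjusted p = 6.27e-05). Pmaip1, which encodes NOXA, an antagonist of MCL1, went the other way: it stood at 14.6 and 16.3, 19.4 and 18.3, and 13.5 and 13.6 CPM, and fell with DON by 0.48 ± 0.08 (edgeR adjusted p = 0.000658). Bad, whose protein is silenced by growth factor signalling, was at 20.4 and 19.5, 15.1 and 16.0, and 13.5 and 14.9 CPM, and fell with GM-CSF by 0.36 ± 0.08 (edgeR adjusted p = 0.00283). The mitophagy receptor gene Bnip3l fell with GM-CSF by 0.71 ± 0.05 and rose with DON by 0.59 ± 0.05 (edgeR adjusted p = 5.65e-07 and 2.94e-06). Its libraries were at 307 and 299, 179 and 190.3, and 282 and 274 CPM. Bcl2a1a rose with GM-CSF by 0.46 ± 0.06 (edgeR adjusted p = 5.2e-05), from 83.8 and 90.5 CPM to 123 and 117 CPM, and was at 117 and 112 CPM with DON. The protective gene Bcl2l2 rose with DON by 0.34 ± 0.08 (edgeR adjusted p = 0.00402). The rise of Bok with GM-CSF was measured at low levels, from 0.83 and 1.31 CPM to 2.17 and 1.78 CPM. Bnip3 fell with GM-CSF by 0.49 ± 0.12, Bcl2l13 rose by 0.20 ± 0.06, and Bcl2l12 was called in no comparison.

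Downstream of the mitochondrion, the 13 listed genes of the apoptosome, caspases and released proteins split into 5 higher and 4 lower with GM-CSF, and 2 higher and 5 lower when DON was added, beside 56.8% and 57.6% of all genes called. Their median log2 fold change was 0.23 and -0.21 in these comparisons, and that of all genes was -0.02 and 0.01. Cycs, the gene of cytochrome c itself, was at 61.3 and 67.1 CPM without GM-CSF, 114 and 115 with it, and 59.6 and 61.9 with DON. It rose with GM-CSF by 0.83 ± 0.06 and fell with DON by 0.91 ± 0.06 (edgeR adjusted p = 7.78e-07 and 7.26e-07). Apaf1, the scaffold that cytochrome c assembles, fell with DON by 0.47 ± 0.06 (edgeR adjusted p = 0.000158), from 57.9 and 59.7 to 42.5 and 42.7 CPM. Aifm1, whose product is another protein of the intermembrane space, rose with GM-CSF by 0.55 ± 0.06 and fell with DON by 0.33 ± 0.06. Htra2, a protease that counters caspase inhibitors, went the opposite way, falling with GM-CSF by 0.99 ± 0.06 and rising with DON by 0.43 ± 0.06. The executioner Casp6 fell with GM-CSF by 1.13 ± 0.11. With DON against none 2 of the 13 were higher and 5 lower, beside 55.6% of all genes called (27.2% higher, 28.4% lower). Casp6 was at -1.45 ± 0.12 in that comparison and Casp9, the initiator of this arm, at -0.36 ± 0.05.

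Caspase inhibitors and mitochondrial channel genes, 13 in all, were 4 higher and 8 lower with GM-CSF and 5 higher and 4 lower with DON added. Of all genes, 56.8% (27.5% higher, 29.3% lower) and 57.6% (28.8% in each direction) were called. Birc5, which encodes survivin and is also a mitosis gene, rose with GM-CSF by 1.38 ± 0.06 and fell with DON by 1.30 ± 0.06 (edgeR adjusted p = 3.64e-08 and 1.3e-07). Birc3, an inhibitor of apoptosis induced by NF-kB, fell with GM-CSF by 0.90 ± 0.07, from 34.1 and 32.8 CPM to 17.5 and 18.5 CPM. Naip2, better known as a sensor of bacterial proteins, fell with GM-CSF by 0.71 ± 0.05 and rose with DON by 0.34 ± 0.05. The channel gene Vdac3 rose with GM-CSF by 0.61 ± 0.05 and fell with DON by 0.39 ± 0.05. Vdac2, whose product holds BAK at the mitochondrion, fell with DON by 0.29 ± 0.04. With DON against none 3 were higher and 7 lower, beside 55.6% of all genes called (27.2% higher, 28.4% lower). Naip6 was at -0.73 ± 0.07 in that comparison and Naip5 at -0.55 ± 0.06. The Naip genes are similar in sequence, so reads may be shared between them.

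In the death receptor arm that leads to BID, 1 of 8 genes rose and 3 fell with GM-CSF, and 1 rose and 1 fell with DON added, beside 56.8% and 57.6% of all genes called. Casp8, which cleaves BID, was at 68.8 and 72.4 CPM without GM-CSF, 113 and 111 with it, and 107 and 105 with DON, and rose with GM-CSF by 0.66 ± 0.05 (edgeR adjusted p = 1.41e-06). Bid thus fell in the comparison in which Casp8 rose. The adaptor Tradd and the caspase 8 inhibitor Cflar fell with GM-CSF by 0.23 ± 0.06 and 0.17 ± 0.05. The receptor gene Tnfrsf1a fell with DON by 0.38 ± 0.05, and Fas rose with DON by 0.27 ± 0.10 (edgeR adjusted p = 9.21e-05 and 0.0402). With DON against none 2 of the 8 were higher and 3 lower, beside 55.6% of all genes called. Fas, at 0.45 ± 0.10, was among the higher ones.

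Of 16 regulators of family transcription or of MCL1 turnover, 15 were tested; 2 rose and 5 fell with GM-CSF, 7 rose and 3 fell with DON added, and 3 rose and 6 fell with DON against none. The share of all genes called in these comparisons was 56.8%, 57.6% and 55.6%. Ddit3, Trib3 and Atf4 had the largest rises of the list with DON. Ddit3, the gene of CHOP, was at 18.5 and 22.6 CPM without GM-CSF, 21.2 and 20.0 with it, and 125 and 124 with DON, a rise over GM-CSF of 2.59 ± 0.08 (edgeR adjusted p = 2.68e-08). Like Bbc3, it overlapped between the groups without DON. Trib3, a target of CHOP, rose in both comparisons, by 2.15 ± 0.11 with GM-CSF and by 2.34 ± 0.08 with DON. Atf4 did so by 0.59 ± 0.06 and 0.85 ± 0.06. Trp53, the gene of p53, was at 80.5 and 84.5 CPM without GM-CSF, 78.3 and 73.6 with it, and 86.3 and 84.0 with DON, and rose with DON by 0.16 ± 0.05 (edgeR adjusted p = 0.0216). Mdm2, a target of p53 and its inhibitor, gave 0.03 ± 0.05 in that comparison (edgeR adjusted p = 0.681). Trp53, Mdm2 and Foxo1 are given outside the naming rule, chosen after their values were seen. Trp53 and Mdm2 were added because Bbc3 and Bax are known p53 targets, and Foxo1 as a forkhead gene beside Foxo3. The part of these regulators in the levels of Bbc3 and Bax was not tested. Foxo3, a forkhead gene whose product is known to act on Bbc3 and Bcl2l11, fell with GM-CSF by 0.48 ± 0.06 (edgeR adjusted p = 9.63e-05), from 65.8 and 58.9 to 43.5 and 45.5 CPM, and was at 49.2 and 49.0 CPM with DON. Foxo1 fell with GM-CSF by 0.31 ± 0.10 and rose with DON by 0.32 ± 0.10 (edgeR adjusted p = 0.0257 and 0.0245). Rela, the gene of an NF-kB subunit, fell with GM-CSF by 0.39 ± 0.04 and rose with DON by 0.32 ± 0.05, while Nfkb1 with DON was below no GM-CSF by a log2 fold change of -0.48 ± 0.05.

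**Figure D5:**
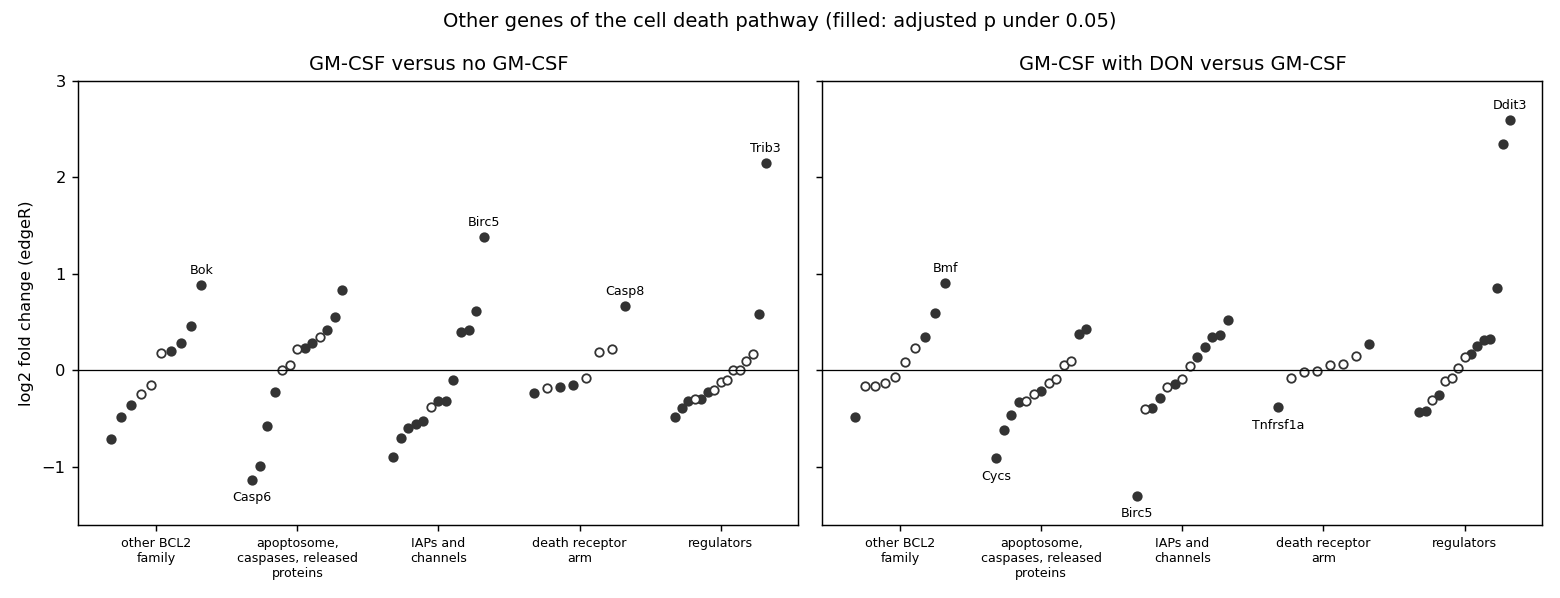
Log2 fold changes of the other listed genes of the cell death pathway, in GM-CSF against none (left) and GM-CSF with DON against GM-CSF (right), one point per tested gene ordered by value within each list; filled points have an edgeR adjusted p under 0.05. The gene with the largest change in each list is named, and the regulators reach 2.59 (Ddit3) when DON is added.

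The 3 members with the widest range between group means were Bbc3 (2.13 on the log2 scale), Bcl2 (1.54) and Bcl2l11 (0.78). For each, the genes whose centred log2 CPM over the 6 libraries lay closest to it were sought by root mean square distance, over 8163 genes whose mean reached 10 CPM. The closest to Bbc3 were Gbp8 (distance 0.169), Fbxo32 (0.179) and Fstl1 (0.203). Gbp8 was at 5.42 ± 0.90, 5.98 ± 0.05 and 20.2 ± 1.04 CPM in the no GM-CSF, GM-CSF and DON groups (SD, n = 2). Fbxo32, a ubiquitin ligase subunit gene, was at 22.8 ± 0.9 CPM without GM-CSF, 19.1 ± 4.72 in the GM-CSF group and 89.3 ± 4.17 with DON (SD, n = 2). The closest to Bcl2 were Pgs1 (0.115), Pfkp (0.128) and Bdh1 (0.142). Pgs1 was at 37.6 ± 0.44, 98.5 ± 4.16 and 60.3 ± 2.17 CPM (SD, n = 2) in that order of groups. Pfkp, which encodes a phosphofructokinase of glycolysis, was at 67.2 ± 0.114, 213 ± 5.91 and 115 ± 2.81 CPM (SD, n = 2) in the same order of groups. The closest to Bcl2l11 were Fnip2 (0.039), Dapk1 (0.0423) and Irgm1 (0.0529). Fnip2 was at 756 ± 66.7, 448 ± 4.40 and 449 ± 6.94 CPM (SD, n = 2). Dapk1, a death-associated kinase gene, was at 265 ± 12.7, 159.8 ± 0.773 and 152 ± 5.77 CPM (SD, n = 2). Each distance describes 6 libraries in 3 groups and carries no test.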

How the data were processed

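RNA sequencing counts of 6 libraries, 2 in each of 3 groups named by the sample titles, were analysed as deposited: whole-number counts for 16840 gene symbols, with 0 columns left out. A second deposited table holds FPKM values made by the authors. The submitters' processing notes name, without roles, the build mm10, DESeq2 1.28.1, STAR 2.6.0a, Subread 1.4.6 and featureCounts; the sources used here do not state annotation, strand setting or read length. In R 4.3.3, edgeR 4.0.16 fitted 1 coefficient per group to all 6 libraries after filterByExpr (minimum count 10) and TMM scaling, with 3 residual and 6.74 prior degrees of freedom. Two-sided quasi-likelihood tests were adjusted by Benjamini-Hochberg over 12340 genes and checked on simulated data. FPKM was tested with limma 3.58.1 on log2(FPKM + 0.1) and log2(FPKM + 1), and DESeq2 1.42.0 was an alternative. Sequences came from RefSeq start-site windows (GRCm38.p6) and GENCODE vM21 transcripts. Named were the 10 members, the tested other family genes and, per list and comparison, up to 4 called genes with the smallest adjusted p. The members and lists were chosen with earlier results of these data known. A result of 1 gene that this rule names is not reported here.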

Additional observations from a re-analysis of the deposited data

How the results depend on the processing

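Of 30 member and comparison pairs, 20 were called and 14 of these were called in all 15 alternatives; all 26 sign changes among 450 values concerned pairs not called. For GM-CSF against none they were Bbc3 with upper quartile scaling (-0.0282) and on leaving out 1 library in turn (-0.0646 to 0.0732), Bcl2l1 (0.0122) and Bcl2a1b (0.0487) with total counts, and Bcl2a1b as the sum of copies (0.15). For DON added they were Bcl2l1 (0.033) and Bcl2l11 (0.0735) with upper quartile scaling, Bcl2l1 (0.0136 and 0.0135) and Bcl2l11 (0.0344 and 0.0307) on FPKM with pseudocounts of 0.1 and 1, Bcl2l11 without the filter (0.0012), Bcl2l11 leaving out 1 library in turn (-0.0766 to 0.0693), and Bcl2a1b on leaving out 1 library (-0.0205 to 0.147) and as the sum (-0.0683). For DON against none they were Bcl2a1b with upper quartile scaling (0.0357), total counts (0.089), leaving out 1 library (-0.0917 to 0.074) and as the sum (0.0836), Bcl2a1d on leaving out 1 library (-0.0754 to 0.102), and Bid on leaving out 1 library (-0.0229 to 0.038) and on FPKM (-0.0166 and -0.0156). The cause was not tested. Leaving out 1 library leaves a lone library that is assumed to vary like the other groups. Beyond the calls given above, Bcl2l1 passed for GM-CSF against none with upper quartile scaling, on FPKM and without no GM-CSF replicate 1. The count of members called, 6, 7 and 7, lay between 5 and 7, 6 and 8, and 5 and 7 over leaving out 1 library and the other settings.

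Replicates were not copies (chi-square per degree of freedom 8.46, 5.29 and 4.50 in the no GM-CSF, GM-CSF and DON groups). Replicate 1 minus replicate 2 differences correlated at -0.05 (no GM-CSF and GM-CSF), -0.30 (no GM-CSF and DON) and 0.06 (GM-CSF and DON). With 2 libraries a group these values cannot decide whether the numbers pair the libraries, which the labels do not state. With the replicate number as a block, 6708, 6882 and 6542 genes were called in place of 7014, 7111 and 6859, and 6, 7 and 7 members; crossed numbers, tried after seeing the data, gave 7063 genes for DON against none.

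When the other family genes were added to the sums of FPKM, protective genes held 79.8%, 79.8% and 76.3%, BH3-only genes 4.63%, 3.83% and 5.01%, and effectors 15.6%, 16.4% and 18.7% in the no GM-CSF, GM-CSF and DON groups. From TMM-scaled counts per length, the BH3-only share with GM-CSF was 2.02%. Depth limits Bcl2 and Bbc3 most, the members with the fewest counts.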
